A study of Homo sapiens with 2 samples.

Results

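Genes encoding the initiation, elongation and release factors of cytosolic translation were examined in BJ cells, an established human fibroblast line, by global run-on sequencing (GRO-seq). Members were the genes of the deposited table whose current symbol starts with EIF or EEF and a number, together with the release factor genes ETF1 and GSPT1, without the kinases of the EIF2AK series. This rule found 61 of 12353 genes, and 60 are described, since 1 is not reported here. The rule also matched 7 protein-coding RefSeq genes that had no value in the table, namely EEF1A2, EEF1AKMT4, EEF1AKMT4-ECE2, EIF2S3B, EIF3CL, EIF4E1B and EIF4E3. The rule used no measured value beyond requiring that a gene have a value. It was set with earlier results of these data known.

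All samples formed 1 group of untreated BJ cells kept in medium with 10% serum, with 2 libraries called a and b. Nuclei were run on with a brominated nucleotide for 5 min at 30 °C, so the signal counts polymerases engaged on a gene rather than mature mRNA. Values are FPKM, read density per length of gene and size of library, as deposited, and each is given per library or as mean ± SD (n = 2). With no second condition, no p-value was computed. The table carries no counts, so the depth behind each value is unknown and no counting interval is given. The line carried fibroblast markers, 10 of 10 with a value and a median of 103 FPKM. Of these, 9 were above the median of all genes (11.7 FPKM), and DCN was below it at 7.34 FPKM. None of the 5 endothelial and leukocyte markers had a value. Of 6 keratinocyte and epithelial markers 2 had values, KRT15 at 3.75 and CDH1 at 1.49 FPKM, and of 3 melanocyte markers 2 had values, PMEL at 22.4 and MLANA at 4.53 FPKM. Their part in the results was not tested.

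As background, translation starts when eIF2 brings the initiator tRNA to the small ribosomal subunit, with eIF3, eIF1 and eIF1A, and eIF4F brings the capped mRNA. eIF5 and eIF5B complete the joining of the subunits, eEF1A and eEF2 then drive each step of elongation, and eRF1 and eRF3 end it at a stop codon. Many mRNAs of this machinery begin with a 5′ terminal oligopyrimidine (TOP) tract, a C followed by further C and T bases, through which growth signals control their translation.

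Translation factor genes mostly stood above the typical gene, but over a very wide range. Their median was 23.7 FPKM (23.8 and 23.7 in the single libraries), against 11.7 for all 12353 genes, which is 2.02 times as high. Of the 60 members, 51 lay above the median gene, where 50% of all genes lie by definition, and 32 lay above the upper quartile of the table (22.2 FPKM), where 25% of all genes lie. A level of 100 FPKM was reached by 5 members (8.33%), against 2.43% of all genes, and 3 members were under 5 FPKM (5%), against 18.5% of all genes. The levels are averages over a culture, so fewer transcribing cells and less transcription per cell cannot be told apart. The 48 subunits of the factors themselves had a median of 26.1 FPKM, and the 12 regulators, modifying enzymes and related proteins 15.3 FPKM.

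**Figure D1:**
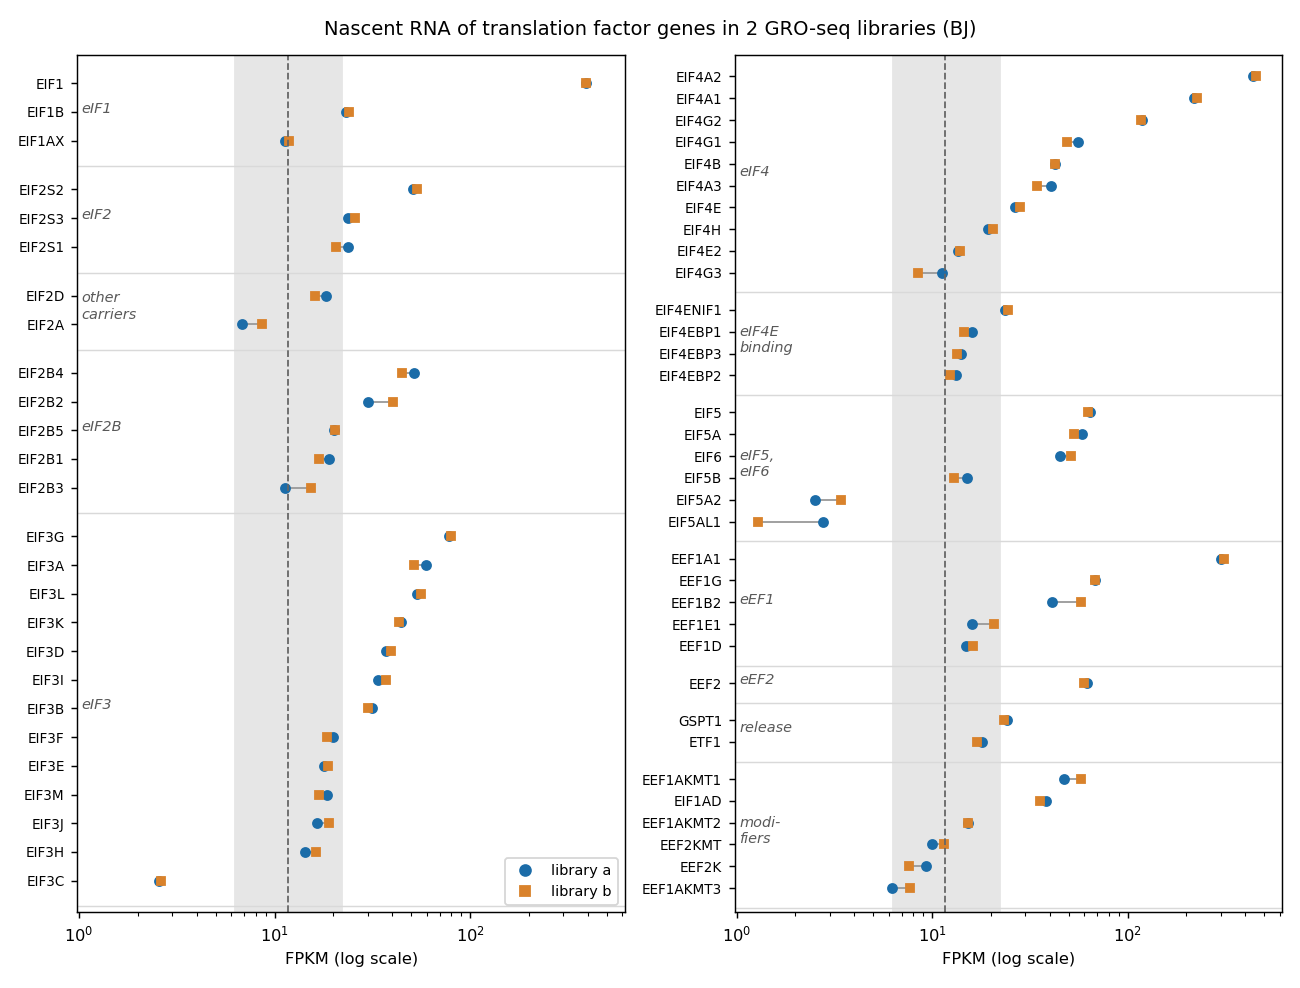
FPKM (log scale) of each translation factor gene in library a (circles) and library b (squares), grouped by factor; the dashed line is the median of all genes (11.7) and the grey band spans their quartiles (6.30 to 22.2). EIF4A2, EIF1, EEF1A1, EIF4A1 and EIF4G2 stand apart at the right, and EIF3C, EIF5A2 and EIF5AL1 at the left.

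The summed FPKM of the members was concentrated in a few genes. EIF4A2, one of the genes of the RNA helicase eIF4A, EIF1, the start-codon selection factor, EEF1A1, which delivers aminoacyl-tRNA to the ribosome, EIF4A1 and EIF4G2 together held 48.7% of it. EIF4A2 was at 439 FPKM (library a) and 453 FPKM (library b, the order kept below) and had rank 49 in the table. EIF1 stood at 391 and 394 FPKM (rank 56), and EEF1A1 at 302 and 312 FPKM (rank 74). EIF4A1 had 218 and 228 FPKM (rank 103), and EIF4G2, a relative of eIF4G that lacks the eIF4E-binding part, 118 and 118 FPKM (rank 236). None of these 5 genes differed by more than 1.06-fold between the libraries after centring on the median gene. EEF1A1 has 49 named pseudogenes, EIF4A1 has 13, EIF1 has 7, EIF4A2 has 5 and EIF4G2 has none. Over all members, 29 of 60 have named pseudogenes. No source used here says how reads shared with such copies were counted, so the values of genes with copies are uncertain.

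The annotated starts of the members are shown because TOP starts were frequent among them. RefSeq promoters on GRCh38.p14 were matched by symbol for 49 of the 60 members, with 65 annotated starts in all. Those not matched were EEF1AKMT1, EEF1AKMT3, EEF1D, EEF2KMT, EIF2S2, EIF3A, EIF3E, EIF3G, EIF3H, EIF3L and EIF4EBP1. A TOP start was defined as a C at the first transcribed base followed by at least 4 bases that are each C or T. A gene with several annotated starts was counted if any of them was a TOP start. EEF1B2 has 2 annotated starts, and only its TOP start is shown. Each sequence below runs 5′ to 3′ from 10 bases before the start to the 20th transcribed base, and the capitals mark the pyrimidine run that begins at the start.
EIF4A2 (chr3:186783567-186783596, plus strand): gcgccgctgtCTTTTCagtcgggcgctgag
EEF1A1 (chr6:73521013-73521042, minus strand): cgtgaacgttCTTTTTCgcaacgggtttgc
EEF2 (chr19:3985444-3985473, minus strand): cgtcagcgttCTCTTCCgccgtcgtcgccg
EEF1B2 (chr2:206159885-206159914, plus strand): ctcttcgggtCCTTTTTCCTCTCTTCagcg
EIF3K (chr19:38619178-38619207, plus strand): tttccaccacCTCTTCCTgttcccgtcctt
EIF4B (chr12:53006446-53006475, plus strand): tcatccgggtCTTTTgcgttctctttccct
EIF3D (chr22:36529147-36529176, minus strand): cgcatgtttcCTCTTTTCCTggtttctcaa
EIF2S3 (chrX:24054946-24054975, plus strand): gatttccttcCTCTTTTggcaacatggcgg
EIF3F (chr11:7987327-7987356, plus strand): cttccgcctcCTTCTTTCTCgacaagatgg
EIF3M (chr11:32583821-32583850, plus strand): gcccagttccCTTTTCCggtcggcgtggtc
EIF2D (chr1:206612446-206612475, minus strand): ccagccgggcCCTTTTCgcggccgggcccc
EIF2A (chr3:150546777-150546806, plus strand): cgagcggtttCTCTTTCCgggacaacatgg

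These 12 genes were 24.5% of the 49 members with an entry, against 7.50% of 9936 measured genes with an entry, 70.6% of 68 cytosolic ribosomal protein genes and 6.25% of 16 cytosolic aminoacyl-tRNA synthetase genes. The pyrimidine run ranged from 5 bases in EIF4B to 16 in EEF1B2. By factor, a TOP start was present in 4 of 8 eIF3 genes, 2 of 4 eEF1 genes, EEF2, EIF2A and EIF2D, 1 of 2 eIF2 genes and 2 of 10 eIF4 genes. It was present in 0 of 5 eIF2B genes, 0 of 3 eIF1 genes, 0 of 6 eIF5 and eIF6 genes, 0 of 3 eIF4E-binding genes and 0 of 2 release factor genes. The eEF1 and eIF4 counts take in EEF1E1 and EIF4A3, which had no TOP start and were not counted as subunits of the factors. Some further highly transcribed members began otherwise, with the first transcribed base in capitals.
EIF1 (chr17:41688875-41688904, plus strand): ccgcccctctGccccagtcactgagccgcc
EIF4A1 (chr17:7572815-7572844, plus strand): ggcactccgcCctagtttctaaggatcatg
EEF1G (chr11:62573872-62573901, minus strand): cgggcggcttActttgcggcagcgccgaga

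Genes with a TOP start had a median of 40.5 FPKM and the other 37 a median of 22.2 FPKM. The ranges overlapped almost completely, from 7.74 (EIF2A) to 446 FPKM (EIF4A2) with a TOP start and from 2.03 (EIF5AL1) to 392 FPKM (EIF1) without. Over all measured genes the medians were 14.6 and 11.8 FPKM. When the tract was allowed to begin within 10 bases of the annotated start, 26 members held one (53.1%, against 42.0% of all genes), and their median of 22.5 FPKM was no longer above that of the other 23 (23.7 FPKM). Annotated starts need not be the starts used in BJ cells, and the reads that would place them were not used here.

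**Figure D2:**
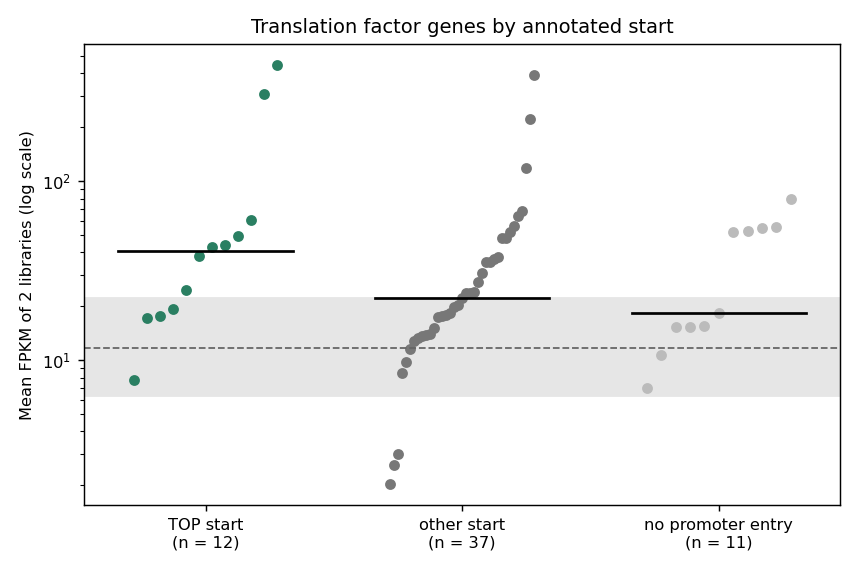
Mean FPKM of the 2 libraries (log scale) for members with a TOP start, with another start, and without a promoter entry; each point is a gene, black lines are medians, and the dashed line and grey band give the median and quartiles of all genes. The medians are 40.5 and 22.2 FPKM for the first and second class, whose ranges overlap.

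Other short motifs were searched on both strands of the 300 bases around each start (250 before and 50 from the start). CACGTG, the E-box that MYC and USF proteins bind, was in 12 of 65 member starts (18.5%), against 9.31% of the 14536 starts of all measured genes. It was found in EIF4E, EIF4B, EIF4G1, EIF4A3, EIF4H, EIF3F, EIF3K, EIF2B3, EIF1B, EIF5A2, EIF4EBP3 and EEF2K. CCGGAAG, a core bound by ETS factors, was in 24.6% against 16.8%, GGGCGG, the SP1 box, in 70.8% against 65.3%, AAGATGGCG, a YY1-type motif, in 6.15% against 3.42%, and TATAAA in 6.15% against 6.40%. Starts of 1 gene can overlap and share a match. The median GC content was 64.3% in member starts and 64.7% in all.

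In the eIF1 group, which sets the accuracy of start-codon choice, EIF1 exceeded its close paralog EIF1B by 16.5-fold (log2 ratio 4.05 ± 0.0375). EIF1B was at 23.1 and 24.2 FPKM. EIF1AX, the X-linked gene of eIF1A, stood at 11.3 and 11.9 FPKM, next to the median gene, and has a near-identical copy, so that its value is uncertain.

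The 3 genes of eIF2, the GTP-binding carrier of initiator tRNA, had a median of 24.8 FPKM, or 37.2 FPKM without EIF2S3, which has a near-identical copy, EIF2S3B, without a value. EIF2S2, the beta subunit, was highest at 51.3 and 53.3 FPKM. EIF2S3, the gamma subunit that binds GTP and tRNA, was at 23.9 and 25.8 FPKM and EIF2S1, the alpha subunit whose phosphorylation lowers initiation under stress, at 23.8 and 20.5 FPKM. EIF2S2 exceeded EIF2S1 by 2.36-fold (log2 ratio of EIF2S1 to EIF2S2 of -1.24 ± 0.191), while EIF2S1 and EIF2S3 did not differ beyond their spread (-0.16 ± 0.230). EIF2D, which can bind initiator tRNA in an alternative route, was at 17.2 ± 1.5 FPKM, and EIF2A, another such protein, at 7.74 ± 1.31 FPKM, below the median gene.

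eIF2B is the exchange factor that reloads eIF2 with GTP, a decamer with each of its 5 subunits in equal number. Its genes were all above the median gene, with a median of 20.3 FPKM, and spread over 3.62-fold. EIF2B4, the delta subunit, was highest at 51.7 and 44.8 FPKM and EIF2B2, the beta subunit, followed at 30.1 and 40.5 FPKM. EIF2B5, the catalytic epsilon subunit, was at 20.2 and 20.3 FPKM, EIF2B1 (alpha) at 19.1 and 16.8 FPKM and EIF2B3 (gamma) at 11.3 and 15.4 FPKM. EIF2B4 and EIF2B2 were above the other subunits in both libraries, and the order of EIF2B5, EIF2B1 and EIF2B3 was the same in both, without overlap of their values.

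eIF3, the largest initiation factor, keeps the small subunit ready for mRNA. All 13 of its genes had a value, with a median of 30.8 FPKM, and 12 lay above the median gene. EIF3G, an RNA-binding subunit, led at 77.9 and 80.1 FPKM, followed by EIF3A, the scaffold subunit, at 59.2 and 51.8 FPKM and EIF3L at 53.2 and 56.3 FPKM, which did not differ beyond their spread. EIF3K (44.0 ± 0.636), the cap-binding subunit gene EIF3D (38.4 ± 1.47), EIF3I (35.5 ± 2.31) and EIF3B (30.8 ± 0.933) came next. EIF3F, EIF3E, EIF3M, EIF3J and EIF3H formed a lower set between 15.2 and 19.3 FPKM. No eIF3 gene lay between 19.3 and 30.8 FPKM. The 8 genes of the octameric core that shares PCI and MPN domains (A, C, E, F, H, K, L and M) had a median of 18.8 FPKM and the other 5 genes (B, D, G, I and J) a median of 35.5 FPKM.

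EIF3C was the exception at 2.57 and 2.62 FPKM, lower than 93.7% of the table. EIF3CL, its near-identical copy, had no value, so the level of EIF3C is uncertain, and no source used here says how reads common to both were counted. With EIF3C the highest eIF3 gene exceeded the lowest 30.4-fold, and without it 5.18-fold.

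**Figure D3:**
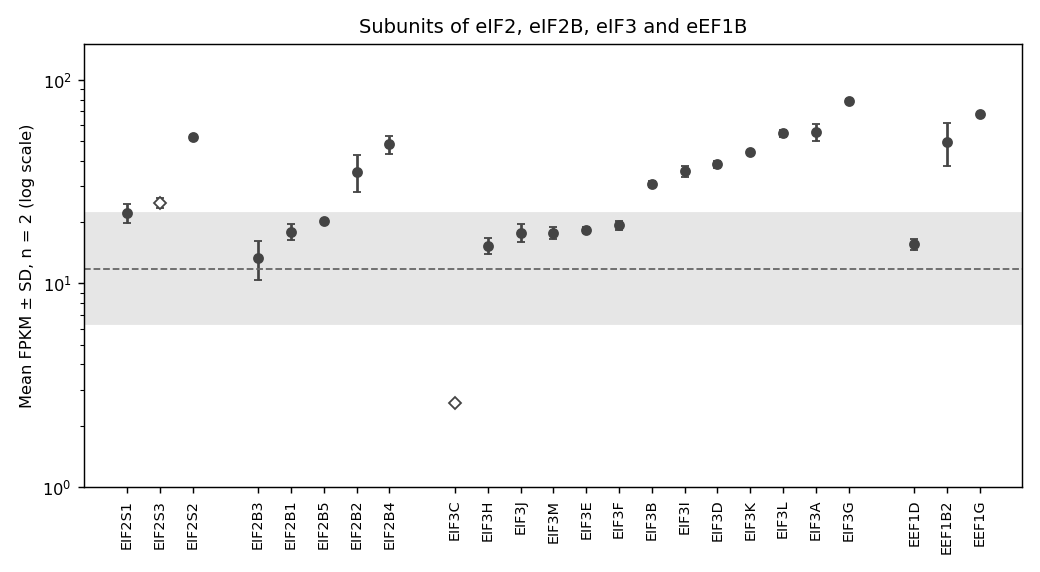
Mean FPKM ± SD (n = 2, log scale) of the subunit genes of eIF2, eIF2B, eIF3 and the exchange factor eEF1B, ordered within each complex; open diamonds are genes with a near-identical copy, and the dashed line and grey band give the median and quartiles of all genes. EIF3C, at 2.60 FPKM, lies far below the other subunits, which run from 13.3 (EIF2B3) to 79.0 FPKM (EIF3G).

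The eIF4 group holds genes whose products bind the cap and unwind the mRNA leader. It also holds EIF4A3, which was not counted as a subunit of the factors, and EIF4G2, without the eIF4E-binding part. Its 10 genes covered the widest range of the initiation factor groups, from 9.83 to 446 FPKM, with a median of 40.1 FPKM. Without the genes that hold a snoRNA or scaRNA gene that median was 23.7 FPKM. Of the helicases, EIF4A2 exceeded EIF4A1 by 1.999-fold (log2 ratio of EIF4A1 to EIF4A2 of -0.9996 ± 0.0115), and EIF4A1 exceeded EIF4A3, the helicase of the exon junction complex, by 5.95-fold (log2 ratio 2.57 ± 0.211). EIF4A3 was at 40.6 and 34.4 FPKM. Of the scaffold genes, EIF4G2 exceeded EIF4G1 (55.5 and 48.8 FPKM) by 2.27-fold, and EIF4G1 exceeded EIF4G3 (11.2 and 8.45 FPKM) by 5.30-fold. The cap-binding gene EIF4E was at 26.6 and 28.2 FPKM, 1.99-fold above EIF4E2 (13.6 and 13.9 FPKM), whose product is linked to repression. Of the helicase cofactors, EIF4B had 42.7 ± 0.148 and EIF4H 19.95 ± 0.778 FPKM.

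The eIF4E-binding repressors were all near the median gene. EIF4EBP1 was at 16.1 and 14.6 FPKM, EIF4EBP2 at 13.3 and 12.3 and EIF4EBP3 at 14.1 and 13.5 FPKM. EIF4EBP1 exceeded EIF4EBP2 by 1.19-fold in the mean of both libraries (log2 ratio 0.26 ± 0.0172). EIF4EBP3 overlaps the annotated readthrough gene ANKHD1-EIF4EBP3, so reads of the 2 genes cannot be told apart. EIF4ENIF1, which carries eIF4E into the nucleus, was at 23.7 and 24.6 FPKM.

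For the later steps of initiation, EIF5, which triggers GTP hydrolysis on eIF2, stood at 64.0 and 63.1 FPKM and EIF5B, the subunit-joining GTPase, at 15.1 and 12.9 FPKM. EIF6, which keeps the large ribosomal subunit from joining too early, had 45.0 and 51.2 FPKM. EIF5A, the hypusine-bearing factor that helps elongation through difficult peptide bonds, was at 58.2 and 53.6 FPKM, 18.3-fold above EIF5A2 (2.53 and 3.44 FPKM). EIF5AL1, a near-identical copy of EIF5A, was the lowest member at 2.76 and 1.29 FPKM. EIF5A and EIF5AL1 may share reads, so both values are uncertain.

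Elongation genes were led by EEF1A1. The eEF1 group of 5 genes takes in EEF1E1, which was not counted as a subunit of the factors. The median of the group was 49.45 FPKM (41.3 and 57.6 in the single libraries). Without EEF1A1, whose pseudogenes share its sequence, the median was 33.9 FPKM. Over the 2 genes that hold no small RNA gene, EEF1A1 and EEF1D, it was 161 FPKM. The exchange factor eEF1B reloads eEF1A with GTP, and its genes were EEF1G at 68.5 and 68.0 FPKM, EEF1B2 at 41.3 and 57.6 FPKM and EEF1D at 14.9 and 16.3 FPKM. EEF1D was below the other 2 in both libraries, and EEF1G exceeded it 4.38-fold. EEF2, the translocase, was at 62.1 and 59.8 FPKM, and EEF1E1, which belongs to the multi-tRNA synthetase complex, at 16.0 and 20.7 FPKM. EEF1A2, the muscle and neuron form of eEF1A, had no value, so the planned ratio to EEF1A1 was not formed.

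Genes of enzymes that modify the elongation factors had a lower mean FPKM than the eEF1 genes and EEF2, apart from EEF1AKMT1. EEF1AKMT2 lay next to EEF1D (15.6 FPKM). EEF2K, the kinase that inhibits eEF2, was at 9.35 and 7.61 FPKM, and EEF2 exceeded it 7.15-fold (log2 ratio 2.84 ± 0.170). The lysine methyltransferase genes EEF1AKMT1, EEF1AKMT2 and EEF1AKMT3 had 52.5 ± 7.61, 15.2 ± 0.0141 and 6.96 ± 1.04 FPKM, and EEF2KMT, which methylates eEF2, had 10.8 ± 1.08 FPKM. EIF1AD, a protein with an eIF1A domain, was at 36.9 ± 1.90 FPKM. The release factor genes lay close together, GSPT1 (eRF3) at 24.1 and 23.3 FPKM and ETF1 (eRF1) at 17.9 and 17.0 FPKM. Of the 11 paralog and partner pairs with values, 9 differed by more than 1.5-fold in the same direction in both libraries, all but EIF4EBP1 with EIF4EBP2 and EIF2S1 with EIF2S3. The share of arbitrary gene pairs past this fold was not computed, so the count of 9 has no background to be set against. Levels spread widely over all genes (SD of log2 level 1.46). The count therefore cannot be read as a property of paralogs or partners.

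Several of the highest members hold small nucleolar RNA genes within their annotated span. On the GRCh38 annotation 10 of 60 members (16.7%) held a snoRNA or scaRNA gene, against 1.84% of 12087 measured genes found in RefSeq and 34.5% of 84 cytosolic ribosomal protein genes. EIF4A2 held 5 of them (SNORA4, SNORA63, SNORA63B, SNORA81 and SNORD2) and EIF4A1 held 3 (SNORA48, SNORA67 and SNORD10). EEF1B2 held SNORA41 and SNORD51, and EIF4G1, EIF4G2, EEF2, EIF3A, EIF5, EEF1E1 and EIF1AX held 1 each. These 10 members had a median of 58.2 FPKM and the other 50 a median of 20.1 FPKM. Over all genes the same split gave 21.9 and 11.6 FPKM. Reads of the small RNAs cannot be separated from those of the host in this table, and their part in the host's value was not tested. EIF1 and EEF1A1, which rank just behind EIF4A2, held none. Of the 12 genes with a TOP start, EIF4A2, EEF2 and EEF1B2 held one (median 60.9 FPKM) and the other 9 did not (median 24.8 FPKM). The 6 genes without a TOP start that held a snoRNA or scaRNA gene had a median of 57.8 FPKM, and the 31 genes with neither feature had a median of 20.3 FPKM.

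The spans of 20 of 60 members (33.3%) overlapped another annotated gene other than a small RNA or pseudogene, against 47.9% of 12087 measured genes found in RefSeq. Their median was 17.75 FPKM, against 31.4 FPKM for the other 40, and over all genes the same split gave 11.1 and 12.35 FPKM. Named protein-coding neighbours were GPHN for EIF2S1, RASSF5 for EIF2D, DDX55 for EIF2B1, P2RY11 for EIF3G, NANOS1 for EIF3A, SNX8 for EIF3B, CCDC73 for EIF3M, SPG11 for EIF3J, REV1 for EIF5B and ALG1 for EEF2KMT. EIF4A1 overlaps the readthrough gene SENP3-EIF4A1. Without a stated strand setting, reads from overlapping stretches cannot be assigned to either gene, so these values are less certain.

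Both libraries gave nearly the same level for most members. After centring on the median gene, the median member differed by 1.07-fold between libraries, against 1.10-fold over all genes. Of the 60 members, 8 differed by a log2 value of more than 0.32 in either direction, which is 13.3%, against 13.8% of all genes, so members were past this fold about as often as any gene. Higher in library b were 6 members (10%, against 6.57% of all genes), namely EEF1B2 (1.41-fold), EIF2B3 (1.38-fold), EIF5A2 (1.36-fold), EIF2B2 (1.36-fold), EEF1E1 (1.31-fold) and EIF2A (1.28-fold). Higher in library a were 2 members (3.33%, against 7.22% of all genes), EIF5AL1 (2.04-fold) and EIF4G3 (1.31-fold). EIF5AL1 was the only member past 1.5-fold. After centring, 36 of 60 members were higher in library b, against 50% of all genes, and the median of the signed log2 differences was 0.03. The 5 genes of the eEF1 group, EEF1E1 included, all had a positive centred difference, but that of EEF1G was 0.0043 and its uncentred value was lower in library b. These are differences between libraries of the same condition.

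**Figure D4:**
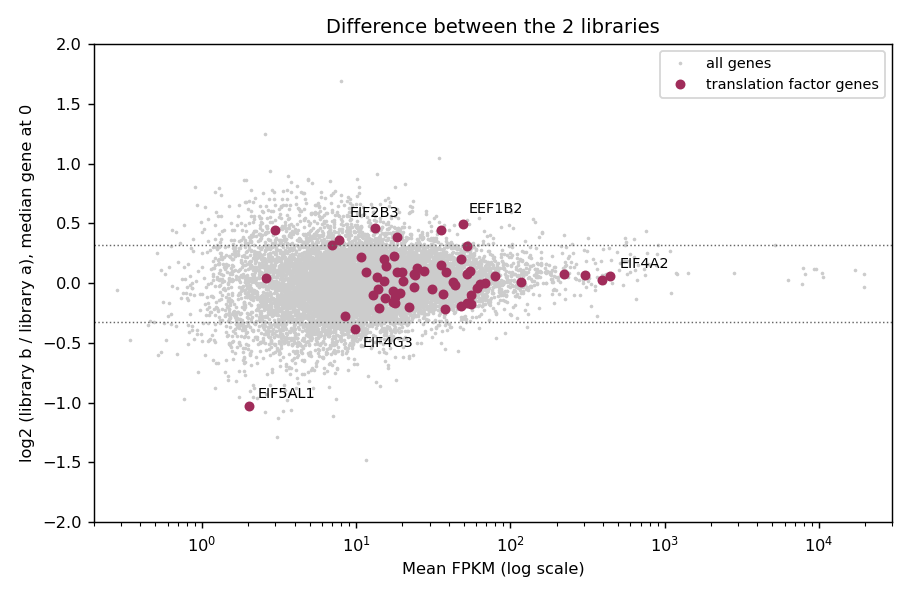
log2 of library b over library a, centred on the median gene, against mean FPKM (log scale) for all genes (grey) and translation factor genes (coloured); dotted lines mark log2 values of 0.32 either side of 0. Of the members 8 lie outside the lines, 6 above and 2 below, and EIF5AL1 lies lowest.

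Other genes that act with these factors were measured in 42 of 44 cases, with a median of 15.1 FPKM and 27 above the median gene. Whether any of them overlaps another gene was not examined, so their values may include reads of other genes. In the cap and poly(A) group (12 of 13 with a value, 7 above the median gene), the helicase gene DDX3X (54.4 and 57.9 FPKM) and the nuclear cap-binding gene NCBP2 (40.6 and 42.4) were highest. MKNK2, a kinase of eIF4E, was lowest at 4.25 and 3.41 FPKM. All 8 genes of eIF2 phosphorylation and its control had values, 5 of them above the median gene. PPP1R15A, the stress-induced partner of the eIF2 alpha phosphatase, stood at 213 and 229 FPKM and its constitutive relative PPP1R15B at 40.8 and 48.1 FPKM, while EIF2AK3, the kinase PERK, was lowest at 7.43 and 6.78 FPKM. The other eIF2 kinase genes lay between 10.3 (EIF2AK2, the kinase PKR) and 15.2 FPKM (EIF2AK1, the haem-regulated kinase).

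Of the elongation and rescue genes, 9 of 10 had a value and 5 were above the median gene. PELO, which rescues stalled ribosomes, was at 59.1 and 62.5 FPKM and DHPS, which starts hypusine synthesis on eIF5A, at 46.0 and 52.6 FPKM. DOHH, which completes hypusine, was lowest at 5.27 and 6.41 FPKM. Of 3 genes of non-canonical initiation and recycling, MCTS1 was at 36.4 and 45.4 FPKM, DENR, the partner of MCTS1, at 15.8 and 16.5 and ABCE1, the recycling ATPase, at 6.80 and 7.28 FPKM. All 10 mitochondrial translation factor genes had values, with a median of 20.2 FPKM and 8 above the median gene. TUFM, the mitochondrial counterpart of EEF1A1, led at 38.5 and 42.3 FPKM, followed by TSFM (30.4 and 30.9 FPKM), its exchange factor, and GFM2, which acts in ribosome recycling, was lowest at 7.56 and 7.38 FPKM.

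Set beside other parts of the translation machinery, the factor genes had nearly the same median as cytosolic aminoacyl-tRNA synthetase genes and a lower one than ribosomal protein genes. The 20 synthetase genes had a median of 23.7 FPKM, 18 of them above the median gene, and ranged from 10.9 to 73.6 FPKM. The 84 ribosomal protein genes had a median of 90.1 FPKM, 82 of them above the median gene, and ranged from 8.91 to 394 FPKM. The spread of log2 level, as SD over genes, was 1.51 for translation factors, 0.79 for synthetases, 1.04 for ribosomal proteins and 1.46 for all genes. With 1 group of samples these differences have no test, and genes are not replicates.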

How the data were processed

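Nascent RNA was measured by GRO-seq in 2 libraries of untreated BJ cells. The authors deposited FPKM values for 12353 Ensembl identifiers, with no counts. The tools named, per the submitters' processing notes, are Bowtie2 and HTSeq, with the build hg19. The gene length and read total used for FPKM, the strand setting and the handling of reads with several matches were not given in the sources used here. Gene lengths were not examined, so their part in differences between genes, paralogs and subunits included, was not tested. Columns a and b match the group, with no replicate number.

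Identifiers were paired with current symbols (12202 of 12353). Members and lists were chosen with earlier results of these data known. Every member may be named, with the highest and lowest of each other pathway group. Log2 values used a pseudocount of 0.1 FPKM, and library differences were centred on the median gene. No filter on low values was applied. The difference procedure was tested on simulated data with less noise than between these libraries (SD of log2 differences 0.228 over all genes). The error rate of the calls made here is therefore unknown. RefSeq promoters and gene order (GRCh38.p14) gave start sequences, overlapping genes and small RNA genes. The hg19 values were not tied to those coordinates. A planned comparison of proteins was not made. Nothing in the labels beyond the term biological replicates says that the libraries came from separate cultures, so SDs may be technical. Python 3.11.15, pandas 2.3.3 and numpy 2.4.6 were used.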

Additional observations from a re-analysis of the deposited data

How the results depend on the processing

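The median of the members (23.7 FPKM) came to between 23.73 and 23.77 FPKM with either library left out, 21.2 without members holding any small RNA gene, 20.1 without those holding a snoRNA or scaRNA gene (an alternative chosen after seeing the data), 26.1 for subunits only and 27.0 as a mean of log2 values. Without genes that have near-identical copies, the eIF2 median went from 24.8 to 37.2 FPKM, that of eIF3 from 30.8 to 33.2 and that of eEF1 from 49.45 to 33.9. The eIF3 spread fell from 30.4-fold to 5.18-fold. Leaving out members holding a small RNA gene gave the same eIF3 spread, since EIF3C holds MIR6862-2 and was left out both times. Leaving out those members gave 32.4 FPKM for eIF4, from 40.1, and 161 for eEF1 (2 genes left), 5 members past a log2 value of 0.32 between libraries and 4 pairs past 1.5-fold, because fewer genes remained. Leaving out only snoRNA and scaRNA hosts gave 25.1 FPKM for eIF3, 23.7 for eIF4 and 68.3 for eEF1, with 4 pairs. A TOP tract within 10 bases was found in 26 members, and the ratio of medians with and without one went from 1.83 to 0.951. The other 79 values tried for these summaries stayed within the spread between libraries or, for counts, within 1.5-fold. Among single pairs 84 of 87 did so, and none changed sign. Many of these outcomes were close to fixed in advance. A minimum mean of 1 FPKM removed no member, and the TOP count uses no library. With 1 library left out, the mean of a single gene moves by less than the SD between libraries. The median over members is not bound in this way, and it did move by more than its SD of 0.0283 FPKM. These settings therefore say little about how stable the results are. Pseudocounts do not enter FPKM medians. No paired analysis was possible because the series has 1 group. Since depth is unknown, low members such as EIF5AL1, EIF3C and EIF5A2 are the least certain.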
